A study of Homo sapiens with 6 samples.

Results

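The genes described here act on 2 repressive chromatin marks. Some write histone H3 lysine 27 methylation, and the others write, copy or remove DNA methylation. They are the core of Polycomb repressive complex 2 (EZH2, SUZ12 and EED), the DNA methyltransferases DNMT1, DNMT3A and DNMT3B, the methyltransferase recruiter UHRF1, and the methylcytosine dioxygenases TET1, TET2 and TET3. Members were taken by symbol, and all 10 were found among the 27470 genes of the count table and passed the filter on low counts that left 12233 genes for testing. Transcripts were counted from their 3ʹ ends in the castration-resistant prostate cancer line 22Rv1 carrying a doxycycline (Dox)-inducible ABHD5 transgene (22Rv1-ABHD5). ABHD5 is the coactivator of adipose triglyceride lipase and so switches on lipolysis. There were 3 libraries without Dox and 3 with Dox, each from cells cultured for 48 h. All 6 came from cells infected with the pInducer20-ABHD5 lentivirus and selected with G418, so the transgene and the selection were shared and only Dox differed. Because no Dox-treated cells lacking the transgene are among the samples, the effects of Dox and of ABHD5 cannot be told apart. The labels do not say that the libraries came from separate cultures, so the p-values measure the spread between these libraries, which may be technical.

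Polycomb repressive complex 2 (PRC2) places methyl groups on lysine 27 of histone H3. EZH2 is its catalytic subunit, EED binds the methylated product and stimulates the enzyme, and SUZ12 is the scaffold that holds the complex together. EZH1 is an alternative catalytic subunit that persists in non-dividing cells, whereas EZH2 is best known from proliferating cells and is commonly high in advanced prostate cancer. DNMT1 copies DNA methylation onto the new strand after replication, guided by UHRF1, which recognises hemimethylated sites, while DNMT3A and DNMT3B set new methylation. The TET enzymes oxidise 5-methylcytosine, the first step of active demethylation.

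ABHD5 was checked first, and the marker genes of the line after it. Its row does not tell reads of the transgene from those of the cell's own gene. Whether 3ʹ reads of the transgene were counted there was not tested. ABHD5 stood at 63.5, 58.0 and 62.8 CPM (read counts scaled to a common library size, with trimmed mean of M values factors, TMM) without Dox and at 125.9, 130.8 and 91.7 CPM with Dox. It rose by 0.91 ± 0.15 (log2 fold change, SE; adjusted p = 1.98e-04, edgeR's quasi-likelihood test), and the conditions did not overlap. All 9 markers of prostate luminal cells in the list were tested, and 5 of them fell, beside 13.7% of all genes tested. The other 4 did not pass. Among those that fell was KLK2 at -1.69 (log2 fold change), a sparse gene. It had 35, 39 and 66 counts without Dox and 20, 4 and 31 with Dox. Of 12 markers of fibroblasts, endothelium and leukocytes, 8 did not exceed 3 counts in any library and 5 were at 0. Their summed level was 6.82 to 11.2 CPM without Dox and 7.51 to 11.0 CPM with Dox. COL1A1, a fibroblast collagen, passed the test at a log2 fold change of 1.22 with overlapping conditions, and lost the call in 6 of 13 alternatives. Library totals were 3394672 to 5988151 counts without Dox and 3460471 to 7271771 with Dox. At these depths 3 counts, taken as the detection limit, corresponded to 0.413 to 0.884 CPM. The share of reads assigned to no gene was 32.5% to 34.6% without Dox and 35.6% to 39.5% with Dox, and the part of this gap in the results below was not tested.

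Stretches of 4 promoters are shown because they hold a match to the E2F motif, the sequence bound by the E2F factors that drive genes of DNA replication. RefSeq promoter windows on GRCh38.p14, from 250 bases before to 50 bases after each annotated start, were searched on both strands for TTTCCCGC, TTTGGCGC, TTTCGCGC and TTTGCCGC. The 10 genes had 22 windows, of which 5, from 4 genes, held a match. Over all genes the same letters were found in 3.31% of 35116 windows, and in 5.92% of the 7872 windows with at least 30 CpG dinucleotides. Each stretch below is 110 bases long and is written 5ʹ to 3ʹ along the gene's strand, with the match in capitals. Capitals that begin with GCG are the reverse complement of a searched motif.
EZH2 promoter, chr7:148884282-148884391, minus strand: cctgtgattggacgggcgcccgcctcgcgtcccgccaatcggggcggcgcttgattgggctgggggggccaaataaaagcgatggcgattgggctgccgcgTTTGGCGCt
DNMT1 promoter, chr19:10194944-10195053, minus strand: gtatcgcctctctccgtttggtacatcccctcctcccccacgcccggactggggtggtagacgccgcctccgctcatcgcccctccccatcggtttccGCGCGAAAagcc
UHRF1 promoter, chr19:4909401-4909510, plus strand: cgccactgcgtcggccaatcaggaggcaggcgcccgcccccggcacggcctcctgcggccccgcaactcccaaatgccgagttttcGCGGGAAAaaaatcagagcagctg
SUZ12 promoter, chr17:31936787-31936896, plus strand: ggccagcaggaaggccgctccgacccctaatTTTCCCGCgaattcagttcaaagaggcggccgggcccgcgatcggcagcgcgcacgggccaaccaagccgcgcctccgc

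Counted from the start, the match begins at position 2 in EZH2, -2 in DNMT1, -14 in UHRF1 and -189 in SUZ12. The EZH2 window also held 4 matches to CCAAT, the box bound by NF-Y, at -94, -66, -47 and -13. CCAAT was far more common over all genes, in 34.6% of windows, and the CHR motif of late cell cycle genes (TTTGAA or TTCGAA) was in 16.4%. No match overlapped a match to another of these motifs. None of the windows of EED, DNMT3A, DNMT3B, TET1, TET2 or TET3 held the E2F letters. A match is a description of sequence, and binding was not measured.

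With Dox, 2 of the 10 genes passed the test, EZH2 and DNMT1, and both fell. EZH2 mRNA was at 0.519 of its level without Dox and DNMT1 at 0.618. The other 8 members did not pass. In 7 of the 10 the log2 fold change was below 0, beside 5932 of all 12233 genes tested. The median was -0.16 over the 10 members against 0.02 over all genes tested. Across all genes, 25.5% passed in either direction, 11.9% higher and 13.7% lower with Dox, so 2 of 10 is near the background and is read only gene by gene. No member rose, by edgeR at an adjusted p under 0.05 or by DESeq2. At an unadjusted p under 0.05, edgeR placed 1 member higher and 3 lower. The share of all genes at this unadjusted threshold was not worked out. Such counts, here and in the lists below, are therefore not read against a background. The CPM of the conditions did not overlap in 4 members, EZH2, SUZ12, DNMT1 and DNMT3B, all lower with Dox, beside 39.5% of all genes tested.

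**Figure D1:**
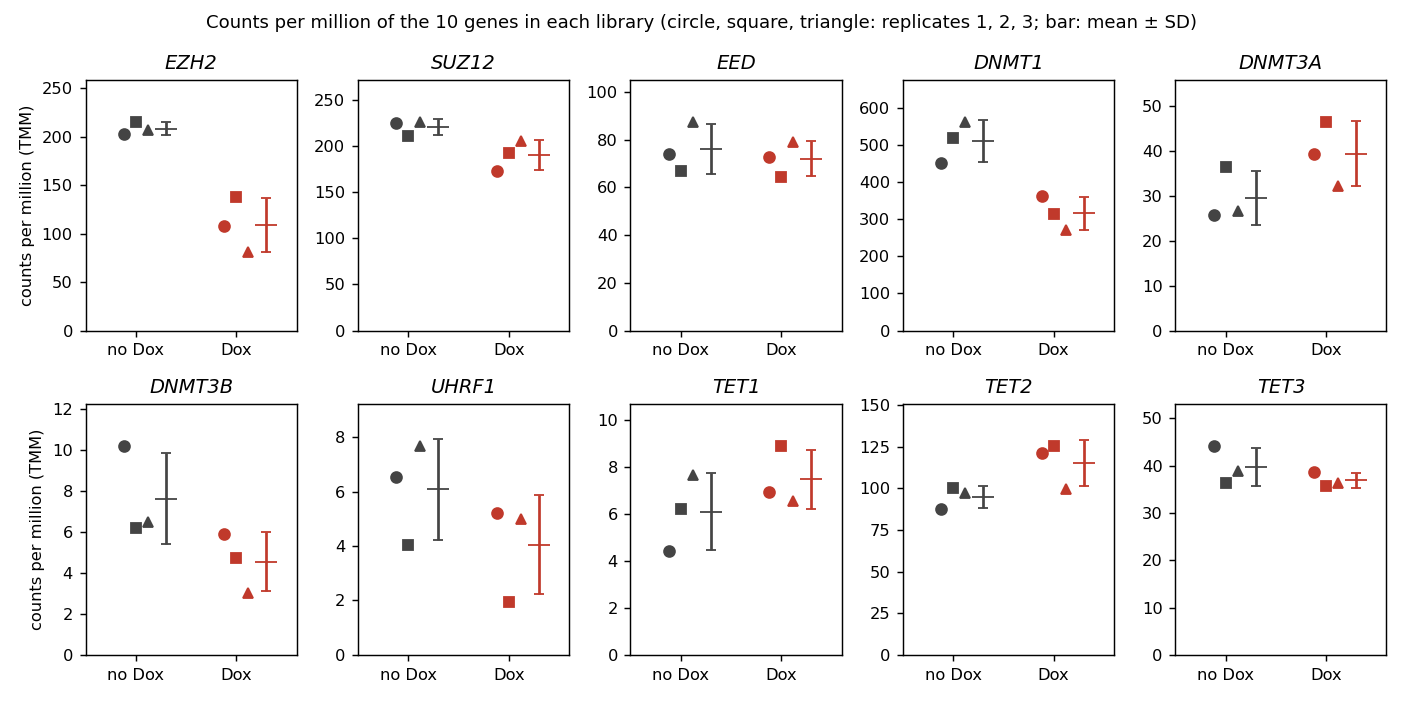
Level of each of the 10 genes in every library (CPM, 1 panel per gene, each axis starting at 0), with the mean and SD of the 3 libraries without Dox and the 3 with Dox. EZH2 and DNMT1 with Dox sit wholly below the libraries without Dox, SUZ12 and DNMT3B do so by smaller gaps, and the conditions overlap in the other 6 genes.

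Among the PRC2 core genes, the catalytic subunit fell and its partners did not pass the test. EZH2 lies at chr7:148807257-148884321 on the minus strand (hg38, GENCODE 44), and the last exon of its canonical transcript, nearest the sequenced 3ʹ end, is 324 bases long. It was at 203, 216 and 207 CPM without Dox and at 108, 138 and 81.2 CPM with Dox, from 495 to 1185 counts per library. Every library with Dox was below every library without it, and the spread was wider with Dox (SD 28.3 against 6.50 CPM, n = 3 each). The log2 fold change was -0.95 ± 0.16 (SE, 95% confidence interval -1.28 to -0.61, adjusted p = 2.55e-04, edgeR's quasi-likelihood test), a level 1.93-fold lower. Replicate 3 with Dox had both the lowest EZH2 and the lowest ABHD5 of its condition, and without it the EZH2 change was -0.77 and still passed.

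SUZ12, the scaffold, at chr17:31937007-32001038 on the plus strand, was at 225, 211 and 227 CPM without Dox. With Dox it was at 173, 193 and 205 CPM. The conditions did not overlap, although the nearest libraries, at 205 and 211 CPM, were close. Its log2 fold change of -0.21 ± 0.12 (SE, 95% confidence interval -0.47 to 0.04) did not pass, with an adjusted p of 0.217 by edgeR's quasi-likelihood test. SUZ12P1, a pseudogene named here outside the rule for named genes because its sequence resembles SUZ12, was counted apart at 21.6 to 24.5 CPM over the 6 libraries, with a log2 fold change of 0.01. Reads may have been split between these rows.

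EED, at chr11:86201212-86278813 on the plus strand, was at 74.2, 67.0 and 87.6 CPM without Dox and at 72.8, 64.3 and 78.9 CPM with Dox. The conditions overlapped. Its log2 fold change was -0.08 (95% confidence interval -0.38 to 0.21, adjusted p = 0.710, edgeR's quasi-likelihood test), an interval that leaves room for a modest change either way. EZH1, the alternative catalytic subunit, was at 35.8, 36.3 and 29.8 CPM without Dox and 31.5, 38.7 and 32.8 CPM with Dox, at a log2 fold change of 0.02 (95% confidence interval -0.32 to 0.35, adjusted p = 0.952, edgeR).

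Within single libraries, the balance between these subunits can be followed without scaling between libraries. The log2 ratio of EZH2 to EZH1 counts was 2.50, 2.57 and 2.79 without Dox and 1.78, 1.83 and 1.30 with Dox. Only the change between conditions is read, since counts of different genes were not set per length. The EZH2 to EZH1 ratio was lower by 0.98 on the log2 scale with Dox, and no library overlapped. EZH2 to SUZ12 differed by -0.75 and EZH2 to EED by -0.89 (log2), again without overlap. Each of these 3 gave p = 0.1 in a two-sided exact permutation test, the smallest that 3 against 3 libraries allow, and an adjusted p of 0.26 over the 13 ratios tested, so this test cannot bring such a ratio past 0.05. Without replicate 3 with Dox, EZH2 to SUZ12 differed by -0.50 and EZH2 to EED by -0.62.

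**Figure D2:**
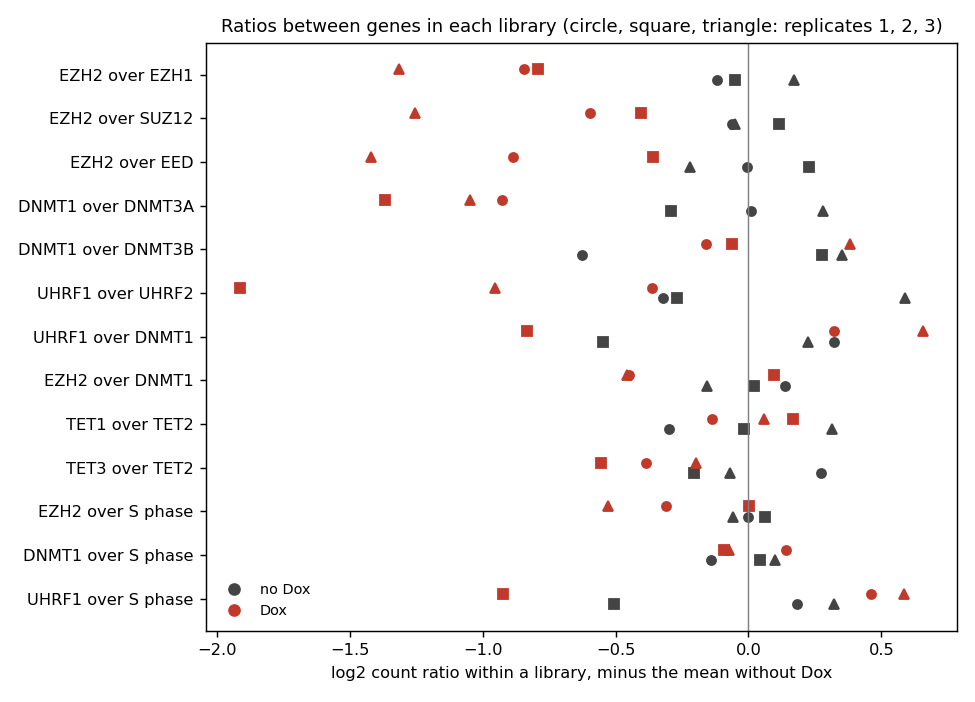
Within-library log2 count ratios in the 3 libraries without Dox and the 3 with Dox, each centred on its mean without Dox. The ratios of EZH2 to EZH1, SUZ12 and EED and of DNMT1 to DNMT3A lie wholly lower with Dox. So does UHRF1 to UHRF2, although its nearest libraries almost touch, and the other 8 overlap.

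Of the methyltransferases, DNMT1 fell and the enzymes of new methylation did not pass. DNMT1 lies at chr19:10133342-10231286 on the minus strand and was the best covered member, with 1130 to 3222 counts per library. It was at 451, 519 and 562 CPM without Dox and at 361, 314 and 271 CPM with Dox. The conditions were separated by a gap larger than the SD of either (56.4 CPM without Dox, 44.8 CPM with Dox, n = 3 each). The log2 fold change was -0.70 ± 0.14 (SE, 95% confidence interval -0.98 to -0.41, adjusted p = 0.00115, edgeR's quasi-likelihood test), a level 1.62-fold lower.

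DNMT3A, at chr2:25227855-25342590 on the minus strand, was at 25.6, 36.3 and 26.5 CPM without Dox and at 39.4, 46.5 and 32.2 CPM with Dox. Replicate 2 without Dox reached into the range with Dox. DNMT3A had a log2 fold change of 0.41 ± 0.18 (SE, 95% confidence interval 0.03 to 0.80), and it did not pass at an adjusted p of 0.108 by edgeR's quasi-likelihood test. This call turned on single libraries. Without replicate 2 without Dox, DNMT3A passed at 0.57 (adjusted p = 0.0476, edgeR), and without replicate 3 with Dox it passed at 0.55 (adjusted p = 0.0363, edgeR). The ratio of DNMT1 to DNMT3A was lower by 1.11 on the log2 scale with Dox, from 4.13, 3.83 and 4.40 to 3.19, 2.75 and 3.07, with no overlap (exact permutation p = 0.1, adjusted p = 0.26).

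DNMT3B, at chr20:32762385-32809359 on the plus strand, was sparse. It had 39, 20 and 37 counts without Dox and 27, 17 and 23 with Dox, which is 10.2, 6.20 and 6.46 CPM against 5.87, 4.73 and 3.02 CPM. The conditions did not overlap on the CPM scale, by a margin smaller than the counting intervals. The 95% Poisson interval of the 20 counts of replicate 2 without Dox was 12.2 to 30.9 and that of the 27 counts of replicate 1 with Dox was 17.8 to 39.3. Such intervals cover counting error only. DNMT3B had a log2 fold change of -0.78 ± 0.33 (SE, 95% confidence interval -1.49 to -0.08, adjusted p = 0.0968, edgeR's quasi-likelihood test). DNMT1 to DNMT3B, as a ratio, differed by 0.05 with overlapping conditions (exact permutation p = 0.8).

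UHRF1, at chr19:4903080-4962154 on the plus strand, was also sparse, with 25, 13 and 44 counts without Dox and 24, 7 and 38 with Dox. Whether the counting left out 3ʹ reads of UHRF1 was not tested, so its counts are not read as low expression. Its levels were 6.53, 4.03 and 7.68 CPM without Dox and 5.22, 1.95 and 4.99 CPM with Dox. The conditions overlapped, and replicate 2 was the lowest library on both sides. The 7 counts of replicate 2 with Dox have a 95% Poisson interval of 2.81 to 14.4. The log2 fold change was -0.56 ± 0.36 (SE, 95% confidence interval -1.32 to 0.21, adjusted p = 0.283, edgeR's quasi-likelihood test), an interval that holds both 0 and the DNMT1 change of -0.70. UHRF2, its paralog, which does not replace UHRF1 in maintenance methylation, was at 43.1, 26.1 and 26.7 CPM without Dox and 35.4, 40.6 and 50.8 CPM with Dox. UHRF2 did not pass either (log2 fold change 0.42, adjusted p = 0.133, edgeR), except when replicate 1 without Dox was left out (0.67, adjusted p = 0.0277, edgeR). The ratio of UHRF1 to UHRF2 was lower by 1.08 on the log2 scale (exact permutation p = 0.1, adjusted p = 0.26), but by 0.66 without replicate 2 with Dox. The conditions did not overlap, but the nearest libraries, -2.70 without and -2.74 with Dox, almost touched. Both were replicate 1, with 25 and 24 UHRF1 counts, and the 95% Poisson interval of the 25 was 16.2 to 36.9. UHRF1 to DNMT1 differed by 0.05 with overlap (exact permutation p = 0.9).

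The 3 TET genes did not pass the test. TET2, at chr4:105145875-105279816 on the plus strand, was at 87.5, 100.2 and 97.4 CPM without Dox and at 121.1, 125.5 and 99.4 CPM with Dox. Replicate 3 with Dox lay within the range of the libraries without Dox, and the other two lay above it. TET2 differed by 0.28 ± 0.13 (log2, SE, 95% confidence interval -0.004 to 0.55, adjusted p = 0.141, edgeR's quasi-likelihood test), and without replicate 3 with Dox it was 0.37 and passed (adjusted p = 0.0479, edgeR). The antisense gene TET2-AS1 held 1 to 5 counts per library and was not tested.

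TET1, at chr10:68560337-68694487 on the plus strand, had 17, 20 and 44 counts without Dox and 32, 32 and 50 with Dox, or 4.44, 6.20 and 7.68 CPM against 6.96, 8.91 and 6.57 CPM. The conditions overlapped widely, with a log2 fold change of 0.24 (95% confidence interval -0.37 to 0.86, adjusted p = 0.589, edgeR's quasi-likelihood test). TET3, at chr2:73984910-74108176 on the plus strand, was at 44.1, 36.3 and 38.8 CPM without Dox and at 38.7, 35.6 and 36.3 CPM with Dox, with overlap. Its log2 fold change was -0.11 (95% confidence interval -0.42 to 0.21, adjusted p = 0.641, edgeR's quasi-likelihood test). TET3 to TET2 differed by -0.38 and TET1 to TET2 by 0.03 on the log2 scale (exact permutation p = 0.2 and 0.9).

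**Figure D3:**
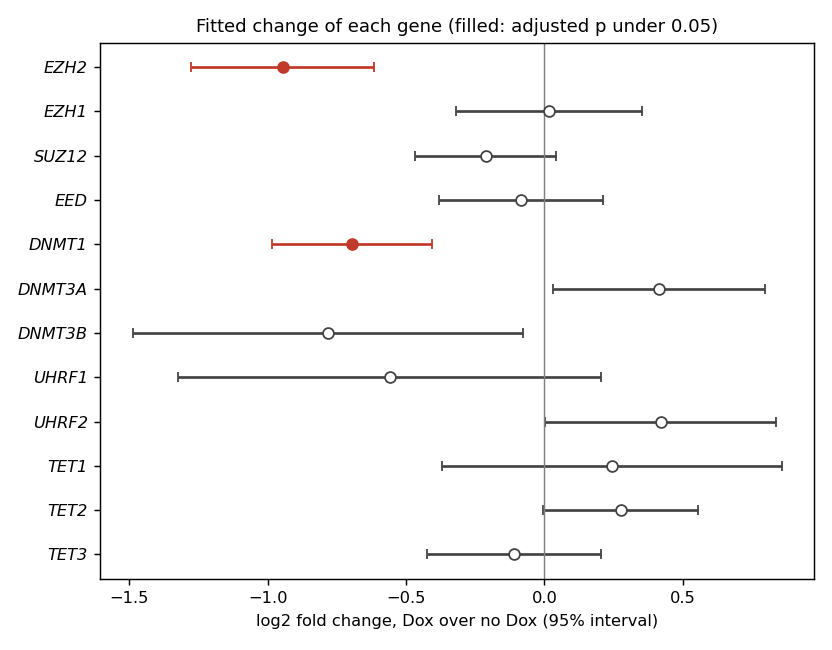
Log2 fold change with Dox against without Dox for the 10 genes and the paralogs EZH1 and UHRF2, with 95% confidence intervals from edgeR, a line at no change and filled points for an adjusted p under 0.05. The intervals of EZH2 (-1.28 to -0.61) and DNMT1 (-0.98 to -0.41) lie farthest from 0, those of DNMT3A, DNMT3B and UHRF2 exclude 0 although these genes did not pass after adjustment, and the other 7 cross it.

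In order of log2 fold change the members ran from EZH2 (-0.95) through DNMT3B (-0.78), DNMT1 (-0.70), UHRF1 (-0.56), SUZ12 (-0.21), TET3 (-0.11), EED (-0.08), TET1 (0.24) and TET2 (0.28) to DNMT3A (0.41). The 95% intervals of neighbours in this order overlapped throughout. The 2 genes that passed were set beside all tested genes with a mean of at least 50 counts for the likeness of their profile over the 6 libraries, measured as the root mean square difference of centred log2 CPM. Nearest to EZH2 were KIF15, a mitotic kinesin, at 0.0247 and HSPD1, a mitochondrial chaperonin, at 0.0620, against a median of 0.559 over 9413 candidates. For DNMT1 they were COX16, an assembly factor of cytochrome c oxidase, at 0.0542 and SMIM4 at 0.0600, against a median of 0.418. The profiles share the same 6 libraries in 2 conditions, and the likeness is a description.

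**Figure D4:**
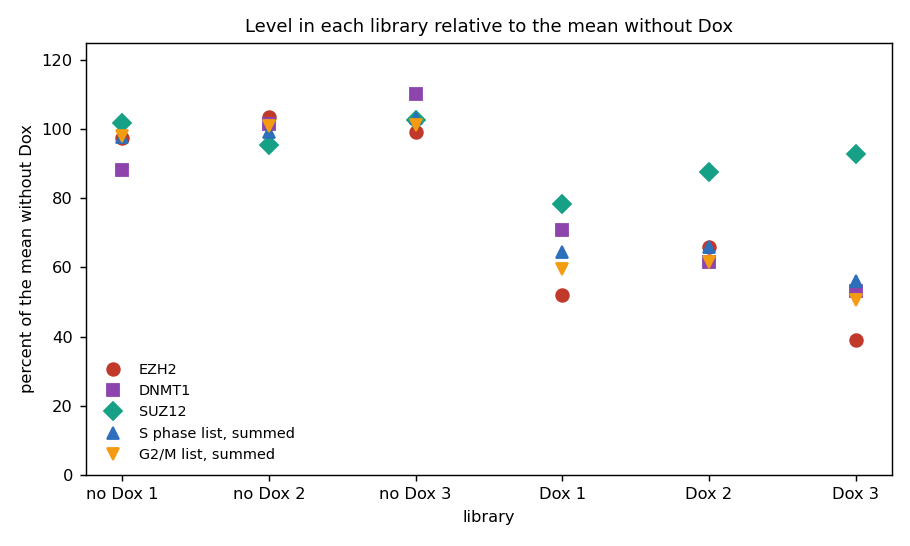
Level in each library as a percent of the mean without Dox for EZH2, DNMT1 and SUZ12 and for the summed S phase and G2/M genes. With Dox, EZH2 stood at 51.9%, 66.0% and 38.9% and DNMT1 at 70.7%, 61.6% and 53.2%, beside 64.4%, 66.0% and 56.1% for the S phase sum and 59.4%, 61.6% and 50.7% for the G2/M sum.

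Most listed genes of the cell cycle fell with Dox. Across all genes tested, 13.7% fell and 11.9% rose, with a median log2 fold change of 0.02. Of 42 S phase genes tested, 32 fell and none rose, with a median of -0.70. Examples are ATAD2 at -1.04 and RRM1, the large subunit of ribonucleotide reductase, at -0.91. Of 54 G2/M genes, 49 fell and none rose, with a median of -0.83, among them the mitotic kinase AURKB at -1.37, CKS2 at -1.29 and HMGB2 at -1.23. By edgeR at an unadjusted p under 0.05, and by DESeq2, no gene of either list was higher. UHRF1 is itself in the S phase list and was left out of the sum used for ratios. Against that sum, DNMT1 differed by -0.01 on the log2 scale (exact permutation p = 1), UHRF1 by 0.04 (p = 1) and EZH2 by -0.28 (p = 0.3, exact permutation), all with overlapping conditions. In bulk libraries, fewer cells in a cycle phase and less mRNA per cell cannot be told apart, and the part of the cycle genes in the fall of EZH2 and DNMT1 was not tested.

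The E2F and DREAM genes, which switch the S phase and G2/M programmes on and off, were mostly lower. Of 19 tested, 10 fell and 2 rose (median log2 fold change -0.50), beside 13.7% lower and 11.9% higher over all genes tested. E2F8, named outside the rule, is also in the S phase list, and without it 9 of 18 fell and 2 rose. E2F2 fell by 1.34, FOXM1 by 1.27 and E2F3 by 1.27 on the log2 scale. TFDP2, a dimer partner of the E2Fs, rose by 0.63, and RBL2, the p130 pocket protein found with E2F4 in quiescent cells, rose by 0.44. RBL2 lost its call in 4 of 14 alternatives.

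The partners of DNA methylation open, mark or seal the newly copied strand on which DNMT1 works. Of 9 tested, 5 fell and none rose, with a median log2 fold change of -0.53. HELLS, the remodeler that opens nucleosomal DNA to methylation, was at 1013, 994 and 1096 CPM without Dox and at 625, 644 and 446 CPM with Dox, a change of -0.86 ± 0.14 (SE, adjusted p = 2.79e-04, edgeR's quasi-likelihood test). PCLAF, whose ubiquitinated form recruits DNMT1 to replicating DNA, fell by 0.70 and the replicative ligase LIG1, another UHRF1 ligand, by 0.72 (log2). CDCA7, the partner of HELLS (-0.96), and the replication clamp PCNA (-0.53) completed the 5 and are named outside the rule. HELLS, CDCA7 and PCNA also belong to the S phase list. Without the 3 shared genes, 2 of 6 fell, beside 13.7% of all genes tested, and the median was -0.09. DNMT3L and DPPA3, germ cell genes, were at 0 in every library. Of 10 methyl-CpG readers tested none passed (median 0.10). Their unadjusted p was under 0.05 for 2, both higher, by edgeR, and DESeq2 called none. Other alternatives called up to 2 readers higher, the most with library totals alone.

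**Figure D5:**
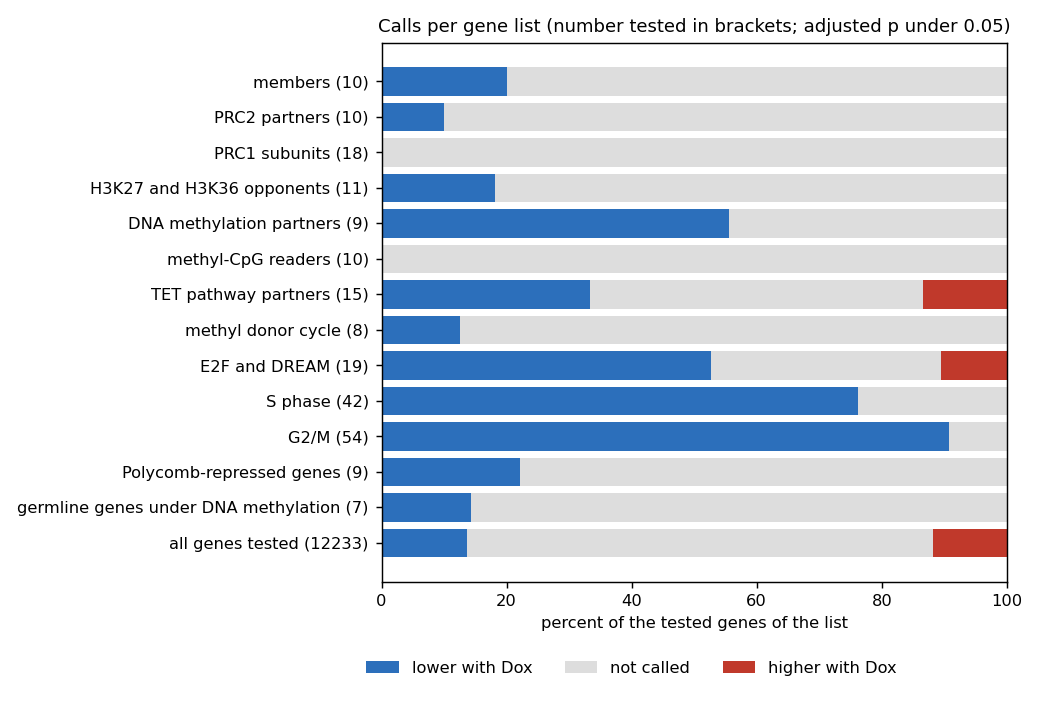
Percent of the tested genes of each list (number tested in brackets) that passed as lower with Dox (blue), passed as higher (red) or did not pass (grey), beside all 12233 genes tested. The blue share is largest for G2/M (49 of 54) and S phase (32 of 42), and the PRC1 subunits and methyl-CpG readers show no call.

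Outside the PRC2 core, few Polycomb genes passed the test. Beside 13.7% lower and 11.9% higher over all genes tested, 1 of 10 PRC2 partners fell and none rose (median -0.19). It was EPOP, a PRC2 partner that ties the complex to Elongin BC, at 19.6, 21.4 and 16.8 CPM without Dox and 10.2, 8.63 and 11.3 CPM with Dox, a change of -0.90 ± 0.21 (SE, adjusted p = 0.00428, edgeR's quasi-likelihood test). At an unadjusted p under 0.05, 3 partners were lower. None of 18 tested PRC1 subunits, the complex that ubiquitinates histone H2A at Polycomb sites, passed by edgeR or by DESeq2. Leaving out replicate 3 without Dox brought 1 call higher and leaving out replicate 3 with Dox 1 call lower. With all libraries, 1 subunit was lower at an unadjusted p under 0.05, and the median was -0.10. Of 11 genes that oppose or antagonise H3K27 methylation, 2 fell, against 13.7% of all genes tested, and they are read only gene by gene. NSD2, the H3K36 dimethyltransferase, was at 384, 397 and 384 CPM without Dox and 232, 244 and 225 CPM with Dox, a change of -0.73 ± 0.12 (SE, adjusted p = 1.79e-04, edgeR's quasi-likelihood test). KDM6B, an H3K27 demethylase, changed by -0.44 and lost its call in 8 of 14 alternatives, which include leaving out either replicate 1, replicate 3 without Dox or replicate 2 with Dox.

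In the TET pathway, which holds cofactor enzymes and the base excision repair that follows oxidation, 5 of 15 genes fell and 2 rose (median -0.19). Over all genes tested, 13.7% fell and 11.9% rose. IDH1, a source of 2-oxoglutarate, the TET cosubstrate, was at 283, 267 and 301 CPM without Dox and 172, 148 and 163 CPM with Dox, a change of -0.82 ± 0.12 (SE, adjusted p = 8.54e-05, edgeR's quasi-likelihood test). APEX1, the abasic site endonuclease, fell by 0.76. TDG, the glycosylase that removes oxidised methylcytosine, fell by 0.45 on the log2 scale. The glycosylase NEIL3 also fell, at -0.71, and is named outside the rule. NEIL2, another glycosylase, rose by 0.69, and OGT, the O-GlcNAc transferase that binds TETs, by 0.60. These smaller calls turned on single libraries in part. Without replicate 3 with Dox, OGT was at 0.22, and that library held 77.5 CPM against 42.4 and 41.5 CPM in the other two. OGT lost its call in 5 of 14 alternatives, which also include leaving out each library without Dox. Without replicate 3 without Dox, TDG was at -0.28, and it too lost its call in 5 of 14 alternatives. NEIL2 missed the threshold without replicate 1 without Dox (0.57, adjusted p = 0.0519, edgeR). Leaving out one library brought the list's count of falls from 5 to 3 for either replicate 1, for replicate 2 without Dox and for replicate 3 with Dox. Scaling by library totals alone left 2 falls, and leaving out replicate 1 without Dox left no rise.

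The last 2 lists hold genes reported as targets of these marks. Of 13 Polycomb-repressed genes, drawn largely from prostate studies, 9 were tested, none rose and 2 fell (median -0.05). Over all genes tested, 11.9% rose and 13.7% fell, so the counts of these 2 lists are read only gene by gene. TIMP3, a metalloproteinase inhibitor, was at 32.4, 23.9 and 28.1 CPM without Dox and 6.09, 8.35 and 8.14 CPM with Dox, a change of -1.90 ± 0.21 (SE, adjusted p = 4.51e-06, edgeR's quasi-likelihood test). BMPR1B, a bone morphogenetic protein receptor, fell by 1.51. At an unadjusted p under 0.05, 1 gene was higher, and DESeq2 called none higher, while 1 passed as higher when replicate 3 with Dox was left out. VASH1, an angiogenesis inhibitor named after its values were seen, did not pass the filter, at 5, 0 and 8 counts without Dox and 13, 14 and 16 with Dox (mean 0.901 and 2.94 CPM). Its conditions did not overlap, and without the filter no gene of the list was called higher. Some listed genes were well expressed without Dox, such as PEBP1 at 1475 CPM and CDH1 at 263 CPM, so the list does not hold only silent genes in this line. Of 26 germline genes that are commonly silenced by promoter methylation in somatic cells, 12 were at 0 in every library, 16 did not exceed 3 counts in any, and 7 were tested. The 7 tested are those expressed enough to pass the filter, among them CTAG2 at 221, MAGEA4 at 170 and MAGEA1 at 101 CPM without Dox, and their values do not describe the silent genes. None of the 7 rose, with 1 higher at an unadjusted p under 0.05 and none by DESeq2. It was STK31, named outside the rule, at 9, 1 and 11 counts without Dox and 19, 15 and 19 with Dox. Its log2 fold change was 1.09 (adjusted p = 0.110, edgeR's quasi-likelihood test), and the conditions did not overlap. SYCP3, a synaptonemal complex protein, fell by 0.88 on the log2 scale, a call lost without replicate 1 with Dox (adjusted p = 0.0591, edgeR). Silencing marks themselves were not measured in these libraries.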

How the data were processed

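Total RNA from 3 libraries without and 3 with Dox was sequenced by QuantSeq 3ʹ mRNA-seq (100 bp single-end reads), with the kit named as FWD in the labels and REV in the study's methods. The submitters' processing notes name CASAVA 1.8.2, FastQC, STAR, HTSeq and edgeR on hg38. Annotation and strand setting are not given in the sources used here. The authors deposited a table of raw counts by gene symbol, which was tested here. Normalized values deposited per library (a signal scaled by a method not given in the sources used here) served as an alternative, without the 27 genes named differently in the 2 kinds of file.

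The 5 rows naming no gene were left out. Counts were tested with edgeR 4.0.16 in R 4.3.3 (TMM, filterByExpr, quasi-likelihood test, Benjamini-Hochberg over 12233 genes, threshold 0.05). The test was afterwards run, without the filter, on counts simulated from the means and dispersions of that fit. Its rates of recovery are not reported here. DESeq2 1.42.0 and limma 3.58.1 gave alternatives. Within-library ratios (0.5 added to each count) were compared by exact two-sided permutation in SciPy 1.17.1. Library totals were 3394672 to 7271771 counts.

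Genes named were the 10 members, ABHD5, the genes of the ratios, up to 3 per list and direction by smallest adjusted p, and the 2 genes nearest in profile to each member that passed. A few genes that this rule names are not reported here. Members and lists were chosen with earlier results of these data known. Loci are those of GENCODE 44 and promoters those of RefSeq.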

Additional observations from a re-analysis of the deposited data

Results flagged for a closer look

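The share of listed reads assigned to no gene was 35.6% in the lowest and 39.5% in the highest library with Dox, against 32.5% to 34.6% without Dox. It was singled out because these reads lie outside the gene counts and their share was above every library without Dox. The part of these reads in the values of the members was not tested. No other value was singled out, since groups of 3 libraries are too small for the search for single outlying samples.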

How the results depend on the processing

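EZH2 (-1.15 to -0.77) and DNMT1 (-0.81 to -0.57) fell and passed in all 14 alternatives: DESeq2 or its size factors, upper-quartile scaling, library totals alone, no filter, at least 10 counts everywhere, a replicate block, the deposited normalized values, and leaving out each library. With library totals alone the median of all genes moved from 0.02 to 0.14 and higher calls from 46.4% to 65.7% of 3315 (55.6% with upper-quartile scaling). There 4 members passed, DNMT3A (0.54) and TET2 (0.40) being added, and EED (0.038) and TET3 (0.013) changed sign. Leaving out each library gave 2 to 4 members, 4 without replicate 3 with Dox. Over these, DNMT3A ran from 0.28 to 0.57, TET2 from 0.21 to 0.37, DNMT3B from -1.03 to -0.50, UHRF1 from -0.77 to -0.30, TET1 from 0.050 to 0.48, TET3 from -0.17 to -0.044, EED from -0.17 to 0.030, EZH1 from -0.078 to 0.070 and SUZ12P1 from -0.038 to 0.047 (-0.0083 without a filter). The ratios that crossed 0 when a library was left out were DNMT1 to DNMT3B (-0.26 to 0.23), UHRF1 to DNMT1 (-0.26 to 0.49), TET1 to TET2 (-0.12 to 0.19, and -0.0011 with a pseudocount of 2), DNMT1 to S phase (-0.082 to 0.041) and UHRF1 to S phase (-0.23 to 0.52), none of which separated the conditions. UHRF1 to UHRF2 (-1.43 to -0.66), EZH2 to S phase (-0.42 to -0.15), EZH2 to DNMT1 (-0.45 to -0.18), EZH2 to SUZ12 (-0.93 to -0.50) and TET3 to TET2 (-0.48 to -0.24) kept their sign. Over all genes named and all alternatives, 618 values kept their direction and call, 35 lost and 6 gained a call, and 10 changed sign. UHRF1 was not tested at 10 counts everywhere.

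With the replicate block 3537 genes passed against 3125, EZH2 was at -0.97 and DNMT1 at -0.70, and no call of a member changed. Deviations of same-numbered libraries correlated at -0.01, 0.21 and 0.08. These values do not settle whether the numbers pair the libraries. Low counts limit UHRF1, DNMT3B and TET1, at 7 to 50 counts per library.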

Other observations

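In the methyl donor cycle, which supplies and recycles S-adenosylmethionine for DNA and histone methylation, 1 of 8 tested genes fell and none rose (median log2 fold change 0.09). Of all genes tested, 13.7% fell and 11.9% rose. AHCY, which clears S-adenosylhomocysteine, the inhibitory product of methyltransferases, was at 107.1, 87.5 and 122.9 CPM without Dox and 88.3, 77.6 and 65.0 CPM with Dox. The highest library with Dox lay just above the lowest without it, the change was -0.47 ± 0.15 (log2, SE, adjusted p = 0.0302, edgeR's quasi-likelihood test), and the call was lost in 5 of 14 alternatives. MAT2A, the enzyme that makes S-adenosylmethionine, had 17 to 32 counts per library and BMI1, a PRC1 subunit, 1 to 5. Both are named outside the rule for named genes, and BMI1 was not tested. Whether the counting left out 3ʹ reads of these 2 genes was not tested, so their counts are not read as low expression.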
